A study of Mus musculus with 6 samples.

Results

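Coenzyme Q is made in mitochondria by a chain of enzymes encoded by the *Coq* and *Pdss* genes. *Coq10b*, one of the genes of this family, was lower in libraries of sorted tumor Tregs from mice with deletion of the glucocorticoid receptor (GR) gene. The family was taken as 10 genes, found by their symbols among the 12153 genes with values, and all 10 had a value in every library. It was chosen by the measured log2 fold change of *Coq10b*, which was known to be strongly below 0 in these libraries, so the values of *Coq10b* are given as a description with no test. The question was whether the other 9 members and the pathways linked to coenzyme Q moved with it.

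RNA-Seq was performed on Tregs sorted from B16.F10 melanomas, a mouse tumor line implanted in the animals, on day 15 after inoculation. The 3 control libraries came from mice with floxed *Nr3c1*, the gene that encodes GR. The 3 Nr3c1-Foxp3Cre libraries came from mice with floxed *Nr3c1* and a Foxp3-YFP/Cre allele, in which the *Foxp3* promoter drives Cre, so deletion is limited to cells that express *Foxp3*. The labels of the control mice name the floxed allele alone, and by those labels the Cre and YFP cannot be told apart from the loss of GR. The sample labels describe sorting on CD45, CD4 and CD25, whereas the methods of the study describe sorting on Foxp3-YFP. That gate would need the YFP allele in control mice too, so whether they carried it is open. Nothing in the labels or the methods says how many animals each library holds, so p-values measure only the spread between these libraries. All values are log2 CPM, read counts scaled to a common library total, after quantile normalization by the authors. Read depth is unknown, and the number of libraries limits the precision.

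Coenzyme Q (ubiquinone) is a lipid that carries electrons in the inner mitochondrial membrane, from complexes I and II and several other dehydrogenases to complex III. It consists of an aromatic ring joined to a long isoprenoid tail. *Pdss1* and *Pdss2* encode the synthase that builds the tail, *Coq2* encodes the transferase that joins tail and ring, and most of the other COQ proteins modify the ring or hold the enzymes together in a complex. The products of *Coq10a* and *Coq10b* are not enzymes of this chain. They are lipid-binding proteins of the START domain family that bind coenzyme Q and are needed for its normal use in respiration.

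*Coq10b* and its paralog *Coq10a* parted in these libraries, so the 250 bases upstream of the start of each are shown, from RefSeq on GRCm38.p6. A window for 9 of the 10 members was found, and a window of *Coq5* was not. The stretch of *Coq10b* is chr1:55052520-55052769 on the plus strand and that of *Coq10a* is chr10:128368981-128369230 on the minus strand, each written 5′ to 3′ and ending at the base before the start. *Coq10a* has 2 RefSeq windows, and the one shown is that whose start is closer to the GENCODE gene start. The other, chr10:128369988-128370287, holds 0 of the motifs marked here. Capitals mark TGACG or its reverse complement, the core letters of the cAMP response element, a motif chosen after the sequence of *Coq10b* was seen.
Coq10b: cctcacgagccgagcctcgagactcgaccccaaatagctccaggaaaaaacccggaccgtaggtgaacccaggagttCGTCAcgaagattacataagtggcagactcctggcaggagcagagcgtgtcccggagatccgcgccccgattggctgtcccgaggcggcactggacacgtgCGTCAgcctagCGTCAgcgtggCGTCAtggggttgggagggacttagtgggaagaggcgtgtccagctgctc
Coq10a: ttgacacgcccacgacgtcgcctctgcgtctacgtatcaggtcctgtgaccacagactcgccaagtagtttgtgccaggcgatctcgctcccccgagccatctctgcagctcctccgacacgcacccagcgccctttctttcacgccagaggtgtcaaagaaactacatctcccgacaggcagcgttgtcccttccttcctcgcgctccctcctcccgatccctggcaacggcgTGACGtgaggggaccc

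The *Coq10b* stretch holds 4 of these motifs, with 168, 67, 56 and 45 bases between the motif and the start, and that of *Coq10a* holds 1, with 11 bases between. In whole windows of 300 bases, which add 50 bases after the start, 20.8% of all 32851 promoter windows hold the letters TGACG on either strand, and 0.231% hold at least 4. Among the other members, *Coq9* has 2, *Coq2* and *Coq7* have 1 each, and *Coq3*, *Coq4*, *Pdss1* and *Pdss2* have 0. The whole palindrome TGACGTCA is in 0 windows of the family and in 1.79% of all windows. The glucocorticoid response element hexamer AGAACA is in 0 windows of the family and in 19% of all windows. The heat shock element GAANNTTC is likewise in 0 windows of the family, against 7.86% of all. The letters CCAAT occur 2 times in the windows of *Coq10b* and of *Coq7* and are in 37.4% of all windows. The GC box GGGCGG, on either strand, occurs 3 times for *Pdss2*, 1 time each for *Coq9* and 1 of the windows of *Coq3*, and 0 times for the other members, against 35.7% of all windows. All motifs were searched on both strands, TGACG is part of TGACGTCA, and a match or its absence describes only these windows.

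The deleted gene was examined first. *Nr3c1* was at 7.15, 7.59 and 6.88 log2 CPM in the control libraries and 6.14, 5.45 and 5.90 in the Nr3c1-Foxp3Cre libraries, a difference of -1.38 without overlap (SE 0.21, adjusted p by limma 0.120), so *Nr3c1* transcripts remained in the Nr3c1-Foxp3Cre libraries and the difference did not pass the threshold. All 6 Treg markers examined had values, and none of them had a limma adjusted p under 0.05, against 0.0576% of all genes. Melanoma markers summed to between 3409 and 9134 CPM in control libraries and between 3802 and 9537 CPM in Nr3c1-Foxp3Cre libraries, so transcripts of tumor cells were present in both groups. The 6 Treg markers summed to less in every library, 1839 to 2826 CPM in control and 1823 to 2533 CPM in Nr3c1-Foxp3Cre libraries. The share of RNA from each cell type is unknown, so levels in these libraries cannot be assigned to Tregs alone. Across all genes, 7 of 12153, or 0.0576%, passed an adjusted p of 0.05 in limma, 6 of them lower (0.0494%) and 1 higher (0.00823%) in Nr3c1-Foxp3Cre libraries. That count was 0 without control replicate 3 or Nr3c1-Foxp3Cre replicate 2, and 1 without Nr3c1-Foxp3Cre replicate 1 or 3.

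*Coq10b* (ENSMUSG00000025981.13) lies on chromosome 1 of mm10 from 55052770 to 55072702, on the plus strand. Its log2 CPM values were 4.9998, 5.13 and 5.26 in the control libraries and 3.83, 3.51 and 3.35 log2 CPM in the Nr3c1-Foxp3Cre libraries. Every control library was above every Nr3c1-Foxp3Cre library, and the highest of the latter was replicate 1. The means were 5.13 ± 0.13 (SD, n = 3) and 3.56 ± 0.24 (SD, n = 3), a log2 fold change of -1.57 with a standard error (SE) of 0.18, which puts *Coq10b* at 33.8% of its control level on the linear scale. In bulk libraries fewer cells that express a gene and less RNA per cell cannot be told apart. Among the 10417 genes with a mean of at least 2 log2 CPM, 7 had a lower log2 fold change than *Coq10b*, and among all genes 53 did.

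*Coq10a* (ENSMUSG00000039914.6), the paralog, lies on chromosome 10 from 128363100 to 128368997 on the minus strand. Its log2 CPM values were 4.39, 4.62 and 4.55 in the control libraries and 4.53, 4.47 and 4.48 in the Nr3c1-Foxp3Cre libraries. The groups overlapped. Its log2 fold change was -0.027 (SE 0.15, adjusted p by limma 0.99998), with a 95% interval from -0.36 to 0.31. Of 4797 stretches of 31 bases in the annotated *Coq10b* transcripts, 0 occur in a transcript of *Coq10a*.

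**Figure D1:**
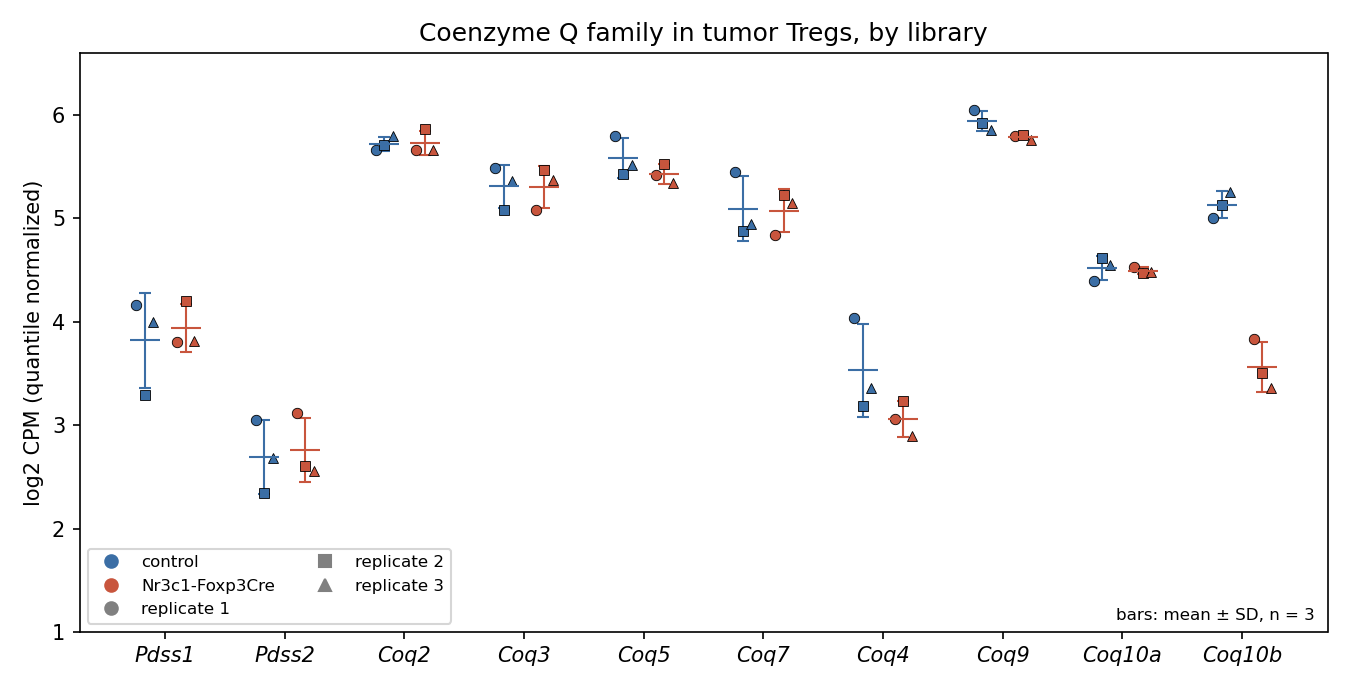
Log2 CPM of the 10 family members (vertical axis) in each of the 3 control (blue) and 3 Nr3c1-Foxp3Cre (red) libraries, with marker shape for the replicate number and bars for the mean ± SD. The groups stand apart for *Coq10b*, at 4.9998 to 5.26 against 3.35 to 3.83, are narrowly apart for *Coq9*, and overlap for the other 8 members.

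Within each library, *Coq10b* was compared with its paralog and with the mean of the other 9 members, which removes any scaling shared by all genes. *Coq10b* minus *Coq10a* was 0.61, 0.51 and 0.71 on the log2 scale in the control libraries and -0.70, -0.96 and -1.13 in the Nr3c1-Foxp3Cre libraries. These values carry no correction for length, so their sign is not an order of the levels of the pair, and only their shift between the groups is read. Per kilobase of exon, *Coq10b* was below *Coq10a* in every library, at 2.74, 2.87 and 2.99 against 3.03, 3.26 and 3.19 log2 CPM per kb in the control libraries. Against the mean of the other 9 members, the difference of *Coq10b* was 0.100, 0.64 and 0.58 in the control libraries and -0.76, -1.21 and -1.20 in the Nr3c1-Foxp3Cre libraries. That mean itself lay from 4.50 to 4.90 log2 CPM in control libraries and from 4.56 to 4.71 in Nr3c1-Foxp3Cre libraries. These differences contain *Coq10b*, so they are described and not tested.

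**Figure D2:**
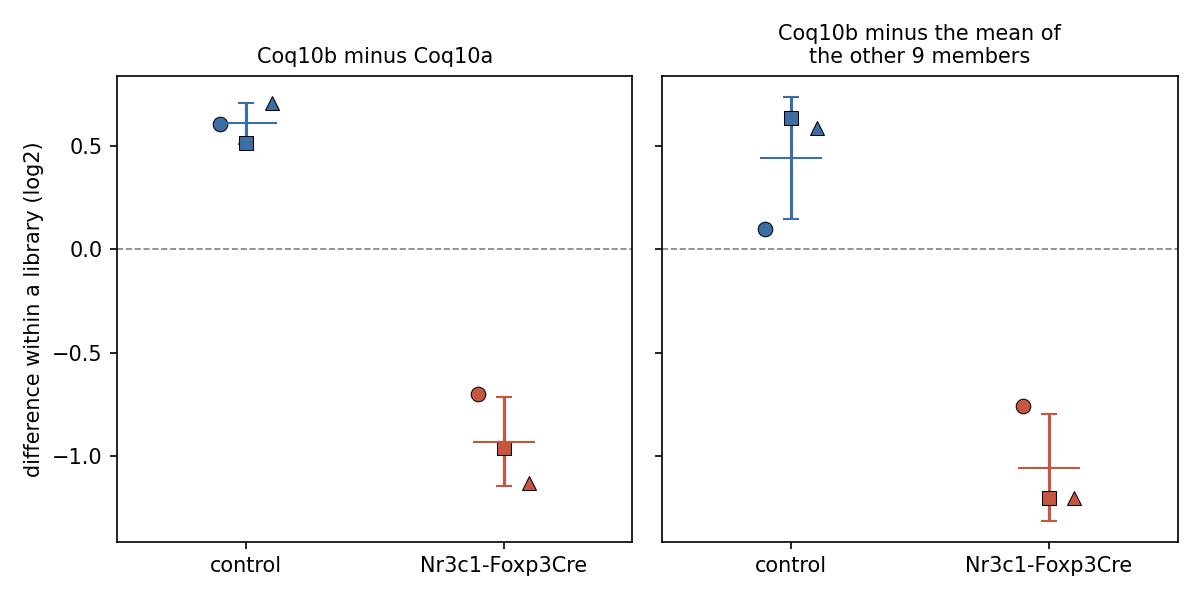
Difference between the log2 CPM of *Coq10b* and that of *Coq10a* (left) or the mean of the other 9 members (right) within each library, with bars for the mean ± SD of 3 libraries and a dashed line at 0. All 3 control libraries lie above all 3 Nr3c1-Foxp3Cre libraries in both panels, and the place of 0 depends on transcript lengths, which were not corrected for.

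Of the 9 other members, 0 had an adjusted p under 0.05 by limma, against 0.0576% of all genes, and 0 had an unadjusted p under 0.05, against 3.26% of all genes. Their differences ran from -0.47 for *Coq4* to 0.12 for *Pdss1*, 6 below 0 and 3 above. Their median was -0.020, beside -0.0014 for all genes. The 95% intervals of the 9 together reached from -1.07, for *Coq4*, to 0.72, for *Pdss2*. The groups did not overlap for 1 of the 9, against 7.41% of all genes, and that member was lower. Of all genes 3.73% were lower and 3.69% higher without overlap. The difference of *Coq9* was below 0 in every alternative tried. Its groups did not overlap, so its sign could not turn when 1 library was left out. The signs of *Coq4* and *Coq5* turned only with the macrophage or fibroblast covariate, neither of which can be told apart from genotype. Those of the other 6 turned when 1 library was left out.

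The tail is built by the products of *Pdss1* and *Pdss2*, subunits of the polyprenyl diphosphate synthase. *Pdss1* (ENSMUSG00000026784.14) lies on chromosome 2 from 22895522 to 22940266. Its mean was 3.82 ± 0.46 (SD, n = 3) in the control libraries and 3.94 ± 0.23 (SD, n = 3) in the Nr3c1-Foxp3Cre libraries, in log2 CPM, a difference of 0.12 with a 95% interval from -0.46 to 0.70. *Pdss2* (ENSMUSG00000038240.13), on chromosome 10 from 43221486 to 43464882, was at 2.69 ± 0.35 and 2.76 ± 0.31 log2 CPM (SD, n = 3 each), with an interval of the difference from -0.58 to 0.72. The spread between control libraries was wide for both subunits, with *Pdss1* from 3.30 to 4.16 and *Pdss2* from 2.34 to 3.05. *Coq2* (ENSMUSG00000029319.8), on chromosome 5 from 100654723 to 100675140, encodes the enzyme that joins the tail to the ring. Its levels were tight, at 5.67, 5.71 and 5.79 log2 CPM in the control libraries and 5.66, 5.86 and 5.66 in the Nr3c1-Foxp3Cre libraries. The log2 fold change of *Coq2* was 0.0071, with a 95% interval from -0.26 to 0.27, so a change of *Coq2* by a log2 unit in either direction lies outside its interval. Of the 31-base stretches of *Coq2*, 13.5% also occur in transcripts of other genes, nearly all in the processed pseudogene *Gm6728*.

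The ring is modified by the products of *Coq3*, an O-methyltransferase, *Coq5*, a C-methyltransferase, and *Coq7*, a hydroxylase. *Coq3* (ENSMUSG00000028247.2), on chromosome 4 from 21879673 to 21912162, was at 5.48, 5.09 and 5.36 log2 CPM in the control libraries against 5.08, 5.47 and 5.37 in the Nr3c1-Foxp3Cre libraries, a difference of -0.0037 (95% interval from -0.36 to 0.35). *Coq5* (ENSMUSG00000041733.10), on chromosome 5 from 115279666 to 115296972, was at 5.80, 5.43 and 5.52 log2 CPM in the control libraries and 5.42, 5.53 and 5.34 in the Nr3c1-Foxp3Cre libraries, a difference of -0.15 (interval from -0.46 to 0.16). *Coq7* (ENSMUSG00000030652.11), on chromosome 7 from 118509659 to 118533356, was at 5.45, 4.87 and 4.95 log2 CPM against 4.84, 5.23 and 5.15, a difference of -0.020 (interval from -0.44 to 0.40). For each of these 3 genes the groups overlapped and control replicate 1 was the highest of the 6 libraries.

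*Coq4* and *Coq9* serve the complex in which the ring enzymes work: the product of *Coq4* is needed for the complex to form, and that of *Coq9* is a lipid-binding partner of the *Coq7* hydroxylase. *Coq4* (ENSMUSG00000026798.10) lies on chromosome 2 from 29787493 to 29797935. Its log2 CPM values were 4.04, 3.19 and 3.36 in the control libraries and 3.05, 3.24 and 2.89 in the Nr3c1-Foxp3Cre libraries, and the groups overlapped. The difference of -0.47 (SE 0.27, adjusted p by limma 0.99998) was the lowest of the 9. Without control replicate 1, the highest library for *Coq4*, it was -0.21. *Coq4* overlaps *Trub2* on the opposite strand, and 28.7% of its 31-base stretches occur in other genes, 865 of the 990 in *Trub2*. The difference for *Trub2* was 0.14 (SE 0.16).

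*Coq9* (ENSMUSG00000031782.15), on chromosome 8 from 94838321 to 94854895, was the other member whose groups did not overlap. Its log2 CPM values were 6.05, 5.92 and 5.86 in the control libraries and 5.80, 5.81 and 5.76 in the Nr3c1-Foxp3Cre libraries. The lowest control library and the highest Nr3c1-Foxp3Cre library were close. Its log2 fold change of -0.15 (SE 0.11, adjusted p by limma 0.99998, 95% interval from -0.40 to 0.091) did not pass the test. Control replicate 1 was the highest library for 5 of the 9 members, *Coq3*, *Coq4*, *Coq5*, *Coq7* and *Coq9*, whereas 19.8% of all genes were highest in that library. It also had the highest melanoma, macrophage and fibroblast marker sums of the control libraries, at 9134, 496 and 364 CPM. Nr3c1-Foxp3Cre replicate 2, the highest library for *Pdss1* and *Coq2*, had a melanoma marker sum of 9537 CPM. A link between these sums and the members was not tested.

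The order of the members was taken per kilobase of annotated exon. In the control libraries *Coq9* and *Coq2* were the highest, both at 4.33 log2 CPM per kb, and did not differ beyond their spread. *Coq5* (3.98) and *Coq3* (3.73) came after them, with overlapping values, and then *Coq10a* (3.16), which overlapped neither neighbor. *Coq10b* was sixth at 2.87 log2 CPM per kb, with values that overlapped those of *Coq7* (2.41). *Coq7* in turn overlapped *Coq4* (1.76), *Coq4* overlapped *Pdss1* (1.73), and *Pdss2* was the lowest at 0.12. In the Nr3c1-Foxp3Cre libraries *Coq10b* was eighth at 1.2995 log2 CPM per kb, below *Pdss1* (1.85) and beside *Coq4* (1.296), whose values it overlapped. The order of the other members changed only in that *Coq2* stood above *Coq9* and *Pdss1* above *Coq4*.

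The rest of the coenzyme Q pathway was examined with a list of 10 genes for ring synthesis, electron supply to it, transport of coenzyme Q and its reduction, all of which had values. Of these, 0 had an adjusted p under 0.05 by limma in either direction, against 0.0576% of all genes, and 1 had an unadjusted p under 0.05, against 3.26% of all genes. Their median log2 fold change was -0.013. *Coq6*, the ring monooxygenase, differed by -0.049 (SE 0.17). *Coq8a* and *Coq8b* encode atypical kinases that support the complex. *Coq8a*, the highest in the list, differed by 0.15 (SE 0.11), and the difference of *Coq8b* was 0.054 (SE 0.16).

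*Hpdl*, the lowest in this list, encodes a dioxygenase-like enzyme of a route that supplies the ring. Its log2 CPM values were 0.35, 0.52 and 1.14 in the control libraries and -0.66, 0.049 and -0.88 in the Nr3c1-Foxp3Cre libraries. The groups did not overlap, which held for 1 of the 10 genes of this list, against 7.41% of all genes. Expression of *Hpdl* was low in both groups. Its difference of -1.16 had a standard error of 0.48 and a limma adjusted p of 0.99998.

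The isoprenoid units of the tail come from the mevalonate pathway, for which all 9 listed genes had values. Of these, 0 had an adjusted p under 0.05 by limma, against 0.0576% of all genes, and 0 an unadjusted p under 0.05, against 3.26%. Their median log2 fold change was -0.021. *Idi1*, the isomerase that makes the allylic isoprenoid unit, was the lowest at -0.21 (SE 0.10). It was at 7.31, 7.19 and 7.16 log2 CPM in control libraries and at 6.99, 6.89 and 7.14 in Nr3c1-Foxp3Cre libraries. The groups did not overlap, but the lowest control and the highest Nr3c1-Foxp3Cre library were close. This held for 1 of the 9 genes, against 7.41% of all genes. *Ggps1*, which makes geranylgeranyl diphosphate, was the highest at 0.10 (SE 0.12), and the 95% intervals of the 9 genes lay between -0.58 and 0.49.

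Enzymes that hand electrons to coenzyme Q without complex I were the last list, with 10 of 10 genes measured, among them the 4 subunits of succinate dehydrogenase. Of these, 0 had an adjusted p under 0.05 by limma, against 0.0576% of all genes, and 0 an unadjusted p under 0.05, against 3.26%. The median was -0.014. The subunits *Sdha*, *Sdhb*, *Sdhc* and *Sdhd* had log2 fold changes of -0.022, 0.0068, -0.0055 and 0.011, with standard errors of 0.089, 0.12, 0.13 and 0.11. The extremes were 2 genes of low expression. *Chdh*, choline dehydrogenase, was at -0.50 (SE 0.43), and *Sqor*, sulfide quinone oxidoreductase, at 0.29 (SE 0.36).

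**Figure D3:**
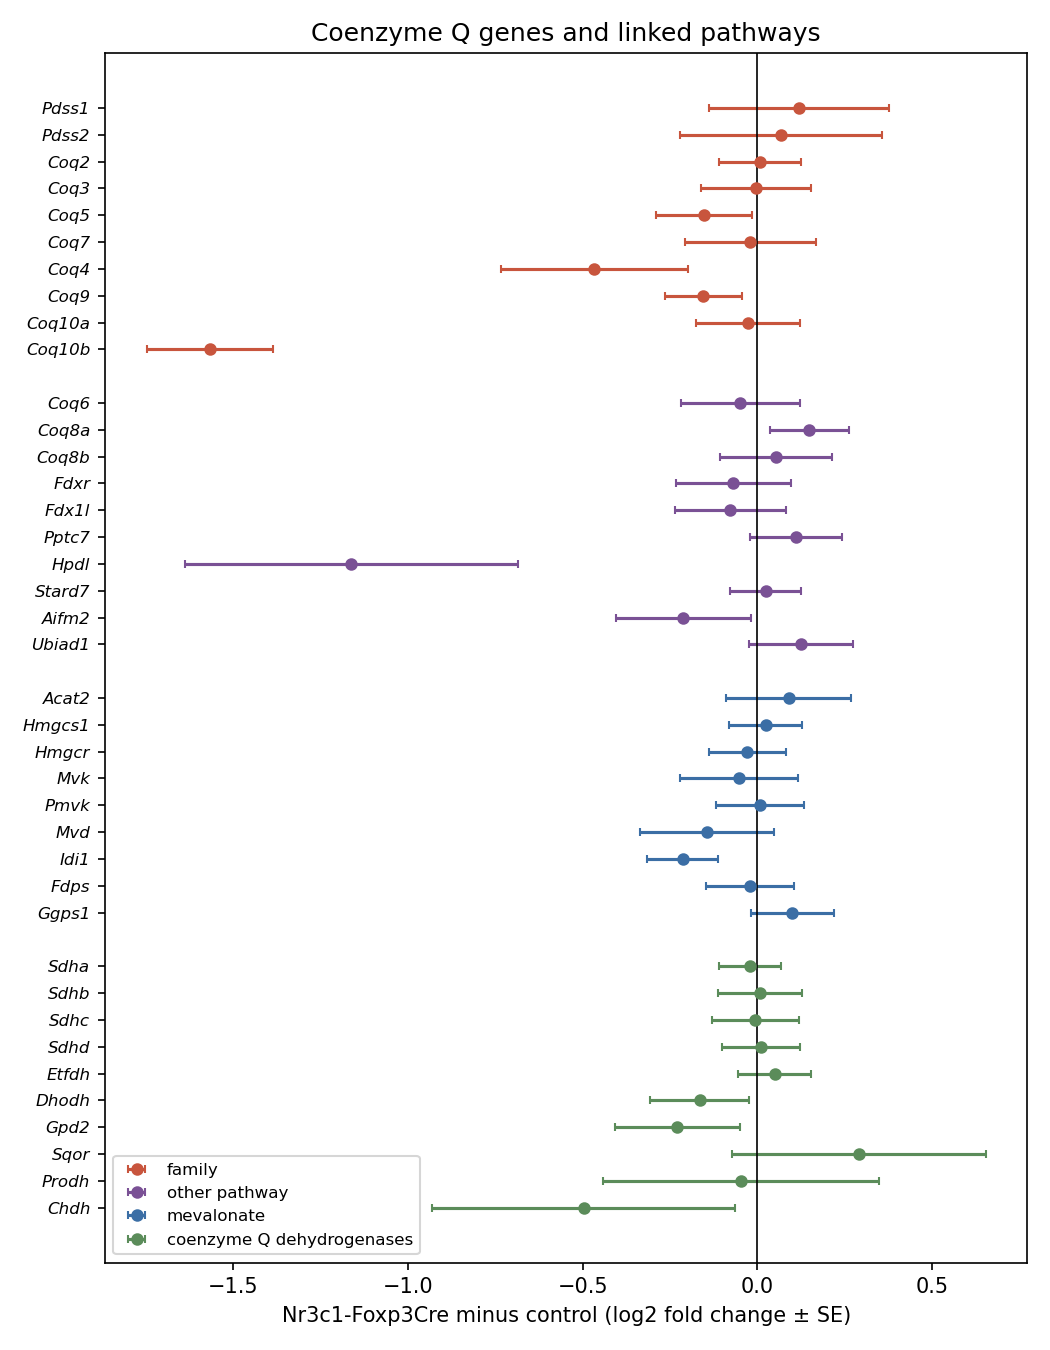
Log2 fold change ± standard error of each gene (horizontal axis, Nr3c1-Foxp3Cre minus control, 3 libraries each) for the 10 family members, 10 other pathway genes, 9 mevalonate genes and 10 coenzyme Q dehydrogenases. *Coq10b* is the lowest at -1.57, *Hpdl* follows at -1.16 with a wide error, and the other genes lie between -0.50 and 0.29.

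Genes along the chromosome were examined next. Within 200 kb of its start, 7 other genes had values. Of these, 0 had an adjusted p under 0.05 by limma, against 0.0576% of all genes, and 0 an unadjusted p under 0.05, against 3.26%. Their log2 fold changes ran from -0.23 for *Mob4* to 0.22 for *Ankrd44*. *Hspd1* and *Hspe1*, which encode the mitochondrial chaperone pair and lie next to *Coq10b*, were at 0.058 (SE 0.16) and -0.10 (SE 0.18). *Sf3b1*, a splicing factor gene on the other side, was at 0.14 (SE 0.096). The groups did not overlap for *Mob4*, which was lower, and for *Sf3b1*, which was higher, 2 of the 7 neighbors against 7.41% of all genes. The antisense transcript *E330011M16Rik* overlaps the start of *Coq10b* and shares 313 of its 4797 stretches of 31 bases, out of 468 (9.76%) that occur in any other gene, and it has no value in the table.

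**Figure D4:**
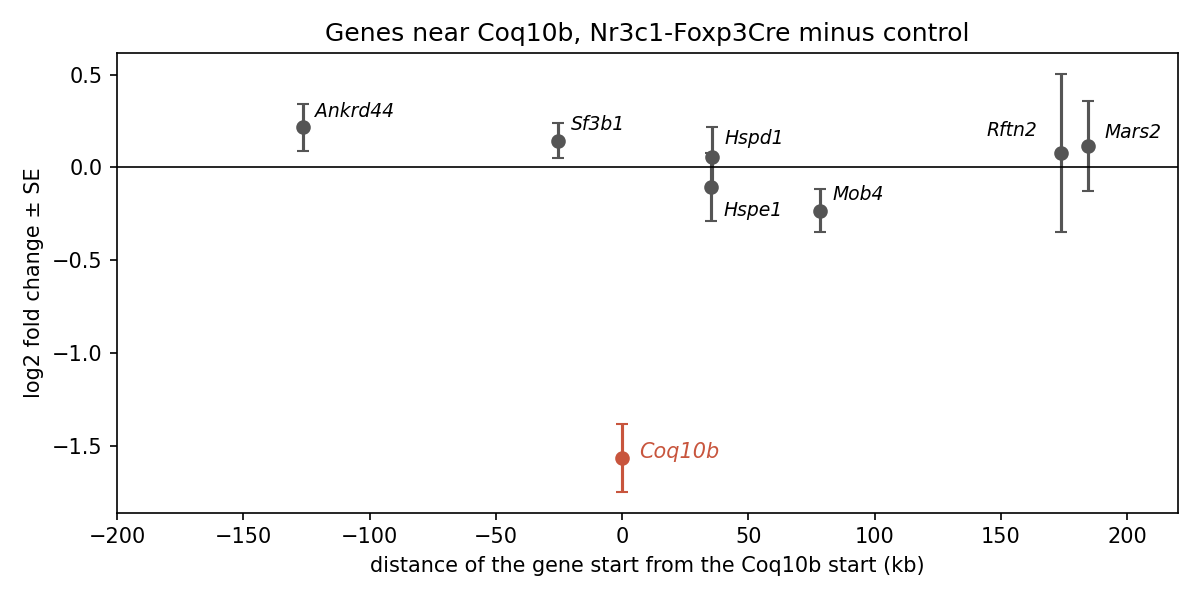
Log2 fold change ± standard error (vertical axis) of *Coq10b* (red) and the 7 genes with values within 200 kb (grey) against the distance of each gene start from that of *Coq10b* in kb. *Coq10b* is at -1.57, and the neighbors lie between -0.23 and 0.22.

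Transcripts of other cells were measured beside *Coq10b*. All 3 fibroblast markers were lower in Nr3c1-Foxp3Cre libraries, with 0 at an adjusted p under 0.05 by limma (0.0576% of all genes) and 2 at an unadjusted p under 0.05 (3.26% of all genes). Their sum was between 148 and 364 CPM in control libraries and between 57.8 and 142 CPM in Nr3c1-Foxp3Cre libraries. The 8 macrophage markers were also all lower, none at an unadjusted p under 0.05 by limma. Their sums were 339 to 496 CPM in control libraries and 252 to 486 CPM in Nr3c1-Foxp3Cre libraries. Of all 12153 genes, 6136 were lower. With the mean of the fibroblast markers as a covariate the log2 fold change of *Coq10b* was -1.90. It was -1.67 with that of the macrophage markers and -1.56 with that of the melanoma markers. These covariates were means of log2 values. Those of the fibroblast and macrophage markers did not overlap between the groups, so fits with them cannot separate them from genotype. For the macrophage markers this rested on *Mpeg1*, at -3.96 log2 CPM in Nr3c1-Foxp3Cre replicate 2. *Cd8b1* summed to at most 15.6 CPM, *Cd8a* and the 3 B cell markers have no value in the table.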

How the data were processed

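Gene expression was measured by RNA-Seq in 6 libraries of sorted tumor Tregs, 3 control and 3 Nr3c1-Foxp3Cre, grouped by the sample titles. Cutadapt trimming, STAR alignment to mm10, RSEM counting on GENCODE M21, removal of genes with low counts and quantile normalization were done by the authors. The deposited values are log2 CPM. Some lie below 0, and the CPM of a library, with the log undone, total 999633 to 999634. Quantile normalization gives the libraries nearly the same distribution, so a shift of all genes cannot be seen. The counts needed for the voom weights of the study were not used here, so limma 3.58.1 (R 4.3.3) was run on the log2 values of all 12153 genes, using lmFit with a genotype term alone and eBayes with its trend option, and p-values were Benjamini-Hochberg adjusted over the whole table (threshold 0.05). Intervals are 95% intervals of the same fit. Coordinates and exon lengths came from GENCODE M21, to which 12130 genes matched by identifier, and promoter sequences from RefSeq. The fit was tested on simulated data.

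The members and the gene lists were chosen with earlier results of these data known. Named genes were all members, genes of the linked lists that passed the threshold or else the highest and lowest of each list, the remaining *Coq* genes, genes within 200 kb of *Coq10b*, and the 5 genes most like it. Alternatives were other variance models and weights, filters on low values, log2(CPM + 1), other centering, marker covariates, a block for the replicate number, and fits that omit 1 library.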

Additional observations from a re-analysis of the deposited data

How the results depend on the processing

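Across 19 alternatives, 2 of which (macrophage and fibroblast markers) were chosen after seeing the data, 0 of the 9 other members had an adjusted p under 0.05, with a lowest of 0.141, and so did 0 genes of the other pathway, mevalonate and dehydrogenase lists. At an unadjusted p under 0.05 by limma the counts reached 2, 2, 1 and 2. The 2 members came with the fibroblast covariate, and the 2 other pathway genes with sample quality weights. The 2 dehydrogenases came with the macrophage and with the fibroblast covariate. The share of all genes at that p in these fits was not computed, so these counts are not read as a result. The *Coq10b* log2 fold change was below 0 in all 19, from -1.90 with the fibroblast covariate to -1.46. Without 1 replicate it ran from -1.70 to -1.46, but the groups did not overlap for *Coq10b*, so the sign could not turn in those fits. The fits without a trend, with filters on low values or with the replicate block return the main estimate of -1.57. The constant sign is therefore a description of *Coq10b* and not a test. The median of the other 9 was 0.22 with the macrophage covariate. The macrophage and fibroblast covariates did not overlap between the groups. Fits with either covariate therefore cannot separate it from genotype, and no conclusion is drawn from them. The count over all genes was 0 without a trend, 0 with the replicate block, 19 with sample quality weights, 18, 102 and 1 with melanoma, macrophage and fibroblast covariates, and 0 to 8 without 1 replicate (0 without control replicate 3 or Nr3c1-Foxp3Cre replicate 2, 1 without Nr3c1-Foxp3Cre replicate 1 or 3). Same-numbered libraries deviated from their group means with correlations from -0.33 to -0.025, so the numbers were not taken as pairs.

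Signs of single members turned in 25 of 171 values. The 171 include the fits that return the main estimates, in which no sign could turn. The signs of *Coq4* (-0.47) and *Coq5* (-0.15) turned with the macrophage and fibroblast covariates. With sample quality weights the differences that turned were -0.051 (*Pdss1*), -0.063 (*Coq2*) and 0.083 (*Coq7*). *Coq3* was 0.0055 with the melanoma covariate. With the macrophage covariate *Coq3*, *Coq4*, *Coq5* and *Coq7* were 0.42, 0.22, 0.17 and 0.47, and with the fibroblast covariate 0.46, 0.056, 0.094 and 0.55. Without 1 replicate the ranges were -0.091 to 0.022 (*Coq10a*), -0.14 to 0.29 (*Pdss1*), -0.11 to 0.25 (*Pdss2*), -0.060 to 0.043 (*Coq2*), -0.12 to 0.11 (*Coq3*) and -0.13 to 0.16 (*Coq7*). The cause was not tested. No read depth is known for these libraries, and counting error in genes of low expression, *Hpdl* among them, cannot be given.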

Other observations

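The 5 genes whose pattern over the 6 libraries was most like that of *Coq10b*, by Pearson's r among genes with a mean of at least 2 log2 CPM, were *Erp44* (r = 0.985), *Zfp36l2* (r = 0.983), *Gabarapl1* (r = 0.982), *Acadl* (r = 0.982) and *Dele1* (r = 0.979). The 6 points form 2 groups, so r mainly follows the difference between genotypes, and it is given as a description. The differences varied in size. *Zfp36l2*, which encodes an mRNA decay factor, was at 7.96, 8.63 and 8.45 log2 CPM in control libraries and 7.01, 6.66 and 6.48 in Nr3c1-Foxp3Cre libraries, a log2 fold change of -1.63. *Acadl*, an enzyme of fatty acid oxidation, and *Dele1*, which encodes a mitochondrial stress messenger, had log2 fold changes of -0.53 and -0.30. *Erp44*, an endoplasmic reticulum chaperone, and *Gabarapl1*, an autophagy protein, had log2 fold changes of -0.20 and -0.15. Within the family, the r with *Coq10b* was highest for *Coq9* (0.743) and *Coq4* (0.594) and lowest for *Pdss1* (-0.225).

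Of 10 genes of the heat shock response, all measured, 0 had an adjusted p under 0.05 by limma, against 0.0576% of all genes. At an unadjusted p under 0.05 by limma the count was also 0, against 3.26%. Their log2 fold changes ran from -0.28 for *Bag3* to 0.12 for *Dnajb1*, with a median of -0.10. The 4 glucocorticoid-responsive genes examined were all lower, as were 6136 of all 12153 genes, and 1, *Tsc22d3*, had an adjusted p under 0.05 by limma, against 0.0576% of all genes. No gene passed, *Tsc22d3* included, without a trend, with the replicate block, without control replicate 3 or without Nr3c1-Foxp3Cre replicate 2. *Tsc22d3* had a log2 fold change of -1.56, *Dusp1* of -0.56, *Per1* of -0.32 and *Fkbp5* of -0.16. The groups overlapped for *Per1* and *Fkbp5*. The study had reported *Tsc22d3*, *Dusp1* and *Fkbp5* as reduced in these Tregs, so the list is not independent of these data.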
